A study of Mus musculus with 16 samples.

Results

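The 9 genes described here, Tmem132b, Dkk3, Odf3l2, Kcnf1, Pld5, Htra4, Cacna2d4, Lrtm2 and Sorbs2, were chosen by their low level in quadriceps from Ant1 transgenic mice. They are 9 of the 19108 genes with a value in every library, and all 9 passed the filter on low counts that left 13666 genes for testing. The choice used the transgenic against wild-type difference itself, so that difference is described below without a test. The rule states no threshold, and the label of most repressed holds less well for Sorbs2. Its log2 difference of -1.49 was place 77 of 13666 when genes were ordered by the size of their fall, whereas the other 8 held places 2 to 21.

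The study sequenced polyadenylated RNA of snap-frozen quadriceps from C57BL/6 mice aged 6 months and kept on ordinary chow. Transgenic mice had the genotype ANT1(Tg)/+ (Tg, 4 females and 4 males) and were compared with wild-type mice (WT, 4 females and 4 males) of the same age, which were littermates where that could be arranged. No label says which littermates belong together, and the promoter that drives the transgene and the tissues in which it is active are not named in the labels. No drug or other treatment is named for any group.

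Ant1, now named Slc25a4, encodes the carrier that exchanges ADP and ATP across the inner mitochondrial membrane, and the series title places the work in the field of mitochondrial stress, cytosolic protein balance and muscle wasting. The repressed genes belong to unrelated families. As background, Cacna2d4 encodes an auxiliary subunit of voltage-gated calcium channels best known from photoreceptors, Kcnf1 a silent subunit of voltage-gated potassium channels, Dkk3 a secreted relative of Wnt inhibitors, and Sorbs2 an adaptor of the Z-disc and of actin-based adhesions in striated muscle.

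Libraries held 17.4 to 30.7 times 1000000 counts. Levels are given as counts per 1000000 (CPM) after scaling of library sizes, and values of the 4 libraries of a group are listed in the order of replicates 1 to 4. Slc25a4 was 2792 to 3919 CPM in WT and 8507 to 11042 CPM in Tg libraries, so every Tg library matched its label. Markers of fast fibres summed to 118024 CPM or more in every library, and 3 WT libraries were rich in adipocyte markers: WT female 1 (2530 CPM), WT female 2 (3238 CPM) and WT male 1 (3272 CPM) against 175 to 1368 CPM in the other 13. In whole muscle, fewer cells of a type and less RNA per cell cannot be told apart.

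The start regions of the repressed genes are shown first because several of these genes differed between genotypes and sexes together, and their letters can be compared directly. RefSeq windows on GRCm38.p6 matched 5 of the 9 genes (Tmem132b, Kcnf1, Pld5, Lrtm2 and Sorbs2), with 8 windows among them. Printed below, 5′ to 3′ on the strand of the gene, are the bases upstream of a start for Tmem132b (chr5:125532168-125532386, plus strand, inside the longer GENCODE gene), for the pair of Lrtm2 starts (chr6:119330767-119331016 and chr6:119329205-119329454, minus strand) and for the first Sorbs2 start (chr8:45507538-45507787, plus strand). Capitals mark matches to the motifs that were searched.
Tmem132b: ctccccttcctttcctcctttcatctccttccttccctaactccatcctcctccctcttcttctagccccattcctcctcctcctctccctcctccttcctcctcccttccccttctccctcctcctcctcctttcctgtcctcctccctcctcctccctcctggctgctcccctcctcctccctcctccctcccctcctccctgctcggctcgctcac
Lrtm2 start 1: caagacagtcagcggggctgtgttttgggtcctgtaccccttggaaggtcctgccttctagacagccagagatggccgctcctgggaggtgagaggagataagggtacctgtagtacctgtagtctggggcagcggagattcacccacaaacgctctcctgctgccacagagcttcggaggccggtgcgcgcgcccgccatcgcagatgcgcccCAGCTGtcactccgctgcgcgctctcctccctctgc
Lrtm2 start 2: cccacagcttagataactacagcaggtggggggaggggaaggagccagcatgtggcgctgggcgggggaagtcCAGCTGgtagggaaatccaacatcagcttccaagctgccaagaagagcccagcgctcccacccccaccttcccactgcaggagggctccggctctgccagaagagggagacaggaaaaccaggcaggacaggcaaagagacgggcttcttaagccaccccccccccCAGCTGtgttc
Sorbs2 start 1: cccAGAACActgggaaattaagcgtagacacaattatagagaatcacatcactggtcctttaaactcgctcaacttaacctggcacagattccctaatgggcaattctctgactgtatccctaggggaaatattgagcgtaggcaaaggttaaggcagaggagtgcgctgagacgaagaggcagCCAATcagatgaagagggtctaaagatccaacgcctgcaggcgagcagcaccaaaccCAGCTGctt

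The motifs were TATAAA, the TATA box, CCAAT, the box bound by NF-Y, CAGCTG, an E-box of the kind bound by myogenic factors, AGAACA, a core of steroid receptor elements, and TGATGNAA, the core of the composite element bound by ATF4. Both strands of the 250 bases upstream of each start were read, and none of these motifs holds another. The E-box CAGCTG lay in 3 of the 8 windows against 13% of 32851 windows of all genes. Its first bases were 36 bases before Lrtm2 start 1, 177 and 11 bases before Lrtm2 start 2 and 9 bases before the first Sorbs2 start. An exon of Cacna2d4 on the other strand spans 0.003 to 0.133 kb before Lrtm2 start 1 and includes the match there. CCAAT was found in 3 windows (33.8% of all windows) and AGAACA in 2 (16.1%), all of them of Sorbs2. Neither TATAAA (12.4% of all windows) nor TGATGNAA (3.45%) was found in any of the 8. The Tmem132b window stands out in another way, since 86.8% of the 250 bases before its start are C or T on the gene's strand, more than in 99.99% of all windows, whose median is 50%. The 219 bases printed, which leave out the last 31 before the start, are 92.7% C or T. These are matches of letters and not measured binding.

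Channel subunits and their neighbour come first. Cacna2d4 (ENSMUSG00000041460.14, chr6:119236526-119352407, plus strand) was at 1.44, 2.03, 1.12 and 2.43 CPM in WT females and at 8.42, 9.67, 7.67 and 9.72 CPM in WT males. In Tg females the values were 0.182, 0.652, 0.246 and 0.412 CPM and in Tg males 0.326, 0.339, 0.266 and 0.344 CPM. WT males were thus the high group, and the Tg libraries of both sexes lay together below every WT library. The log2 difference Tg minus WT was -2.27 in females (SE 0.31) and -4.78 in males (SE 0.31), the largest fall in males among the 9 genes. The summed counts in males were 833 in WT and 31 in Tg, a ratio, scaled to library totals, of 28.1 with a 95% interval of 19.6 to 41.6 that covers counting error only.

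Lrtm2 (ENSMUSG00000055003.14, chr6:119315133-119330766, minus strand) encodes a leucine-rich repeat transmembrane protein and lies wholly inside Cacna2d4 on the other strand. Its level was 2.58, 2.55, 2.24 and 3.14 CPM in WT females and 10.1, 12, 6.42 and 6.25 CPM in WT males. In Tg it was 0.690, 0.753, 0.842 and 0.330 CPM in females and 0.615, 0.974, 0.722 and 1.18 CPM in males. As in Cacna2d4, WT males were high, WT females were intermediate and every Tg library below every WT library. The log2 difference Tg minus WT was -1.99 in females (SE 0.29) and -3.32 in males (SE 0.28).

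Kcnf1 (ENSMUSG00000051726.6, chr12:17172100-17176888, minus strand) has a single exon and encodes a potassium channel subunit that forms no channel alone but joins others. Its WT values were 1.34, 1.87, 3.90 and 6.73 CPM in females and 5.35, 2.91, 5.45 and 2.03 CPM in males. The 4 Tg females had 0.327, 0.100, 0.175 and 0.206 CPM, which rests on 2 to 9 counts per library, and the 4 Tg males had 1.16, 0.889, 0.874 and 0.589 CPM. WT libraries of the sexes were mixed, whereas all Tg males lay above all Tg females, and the highest Tg value, 1.16 CPM, was just under the lowest WT value, 1.34 CPM. The log2 difference was -4.01 in females (SE 0.56) and -2.14 in males (SE 0.47).

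Tmem132b (ENSMUSG00000070498.3, chr5:125531774-125792583, plus strand) encodes a single-pass membrane protein. It was at 2.21, 1.61, 2.99 and 2.92 CPM in WT females, and at 21.1, 26.0, 21.5 and 18.4 CPM in WT males. It was at 0.109, 0.100, 0.105 and 0.165 CPM in Tg females, and Tg males were at 1.99, 5.33, 2.20 and 1.18 CPM. It was the only one of the 9 genes in which Tg and WT libraries overlapped: Tg males covered the range of WT females, although within each sex all Tg libraries were below all WT libraries. The summed counts in females were 206 in WT and 12 in Tg, and their ratio, scaled to library totals, had a 95% counting interval of 11.2 to 39.4. The log2 difference was -4.28 in females (SE 0.50) and -3.02 in males (SE 0.33), and -3.58 in males without Tg male 2, the highest Tg library.

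**Figure D1:**
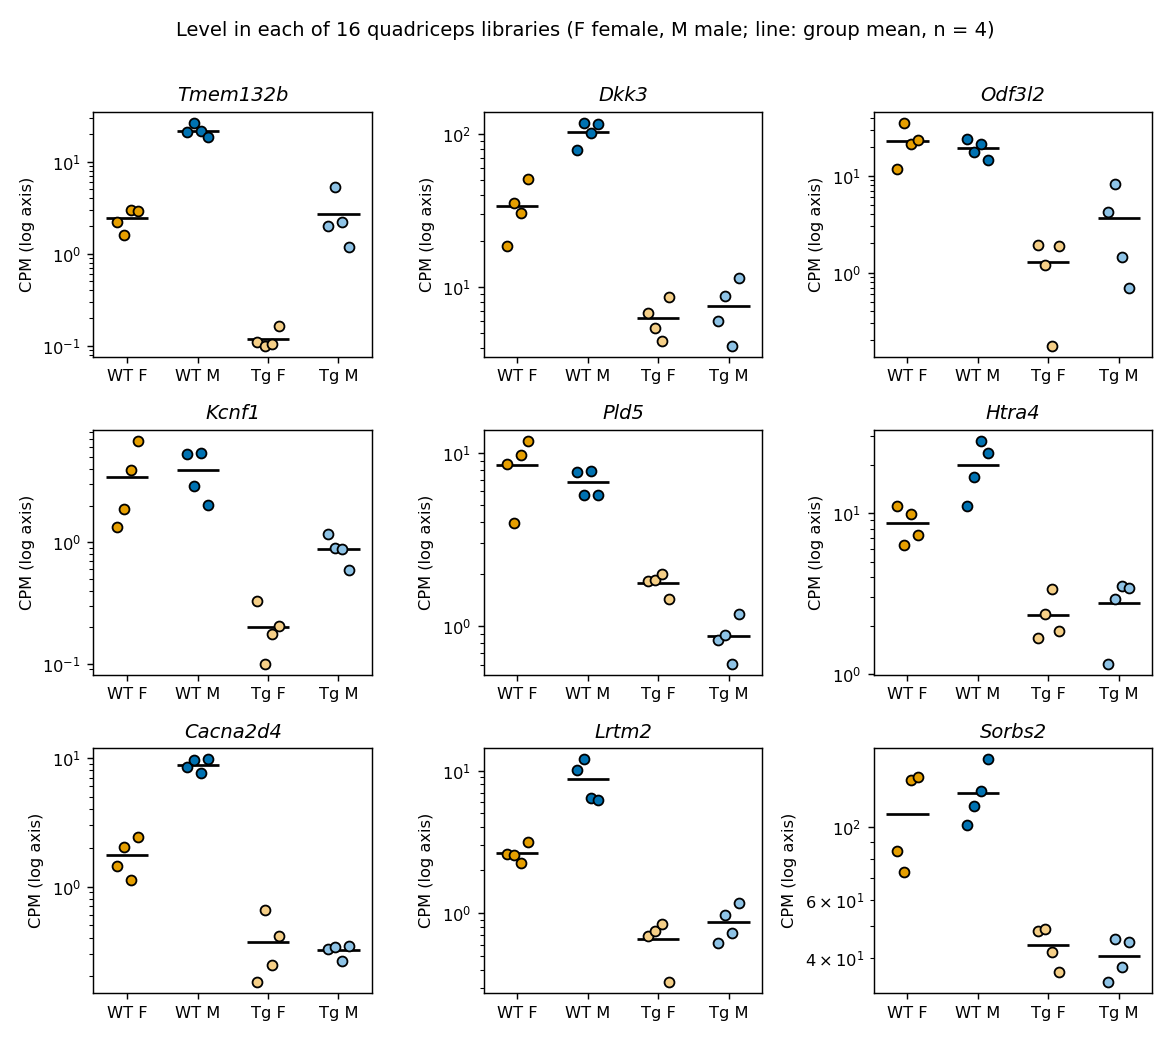
Level of each of the 9 genes in CPM on log axes, with 1 point per library and a line at the mean of each group of 4 (WT F, WT M, Tg F and Tg M for females and males of each genotype). Tg points lie below WT points within each sex in every panel, and in Tmem132b, Cacna2d4 and Lrtm2 the WT males form a separate high group.

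The secreted proteins form the next group. Dkk3 (ENSMUSG00000030772.6, chr7:112116017-112159057, minus strand) was at 18.6, 35.5, 30.5 and 50.9 CPM in WT females and at 78.8, 117, 101 and 116 CPM in WT males. Tg females were at 6.76, 5.37, 4.46 and 8.57 CPM and Tg males at 5.97, 8.68, 4.14 and 11.4 CPM. The WT sexes did not overlap and the Tg sexes did. The log2 difference Tg minus WT was -2.42 in females (SE 0.34) and -3.78 in males (SE 0.35). In each WT sex the lowest Dkk3 value belonged to a library rich in adipocyte markers (female 1 and male 1), and the sex difference without these libraries is given with the tests of sex.

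Htra4 (ENSMUSG00000037406.7, chr8:25024929-25038962, minus strand) encodes a secreted serine protease of the HtrA family. WT females were at 11.1, 6.30, 9.82 and 7.28 CPM and WT males at 11.1, 16.8, 27.9 and 23.5 CPM. In Tg the females had 1.67, 2.36, 3.37 and 1.86 CPM and the males 1.16, 2.92, 3.53 and 3.44 CPM. WT males ranged upward from about the highest WT female level, and the highest Tg library was well under the lowest WT library. The log2 difference was -1.90 in females (SE 0.36) and -2.85 in males (SE 0.36). The annotation places 792 bases of Htra4 exons opposite exons of the noncoding gene Gm16933, for which no value was analysed here.

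The remaining genes encode intracellular or membrane proteins of other kinds. Odf3l2 (ENSMUSG00000035963.8, chr10:79639526-79645738, minus strand) is named for a resemblance to outer dense fibre proteins of the sperm tail. It was at 11.6, 34.9, 21.3 and 23.5 CPM in WT females and at 23.9, 17.6, 21.4 and 14.4 CPM in WT males. Tg females had 1.93, 1.2, 0.175 and 1.90 CPM and Tg males had 4.20, 8.17, 1.44 and 0.688 CPM. Tg libraries differed widely among themselves, but stayed below every WT library. The log2 difference was -4.14 in females (SE 0.71) and -2.41 in males (SE 0.64). Of 8 male germ cell markers listed, 3 had values in the files analysed here (Odf1, Spata18 and Ldhc), and these had too few counts to be tested.

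Pld5 (ENSMUSG00000055214.15, chr1:175962306-176275312, minus strand) encodes a member of the phospholipase D family that is thought to lack catalytic activity. WT females were at 8.59, 3.96, 9.71 and 11.6 CPM and WT males at 7.75, 5.72, 7.84 and 5.69 CPM. In Tg females it was at 1.82, 1.86, 2.00 and 1.44 CPM and in Tg males at 0.832, 0.889, 0.608 and 1.18 CPM. The genotypes were separate, and every Tg male was below every Tg female, a difference that did not pass the test (edgeR adjusted p = 0.211). The share of all genes in this order is not given here, and the reverse order was held by 3.81% of all genes. The log2 difference was -2.25 in females (SE 0.27) and -2.95 in males (SE 0.29).

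Sorbs2 (ENSMUSG00000031626.17, chr8:45507788-45827906, plus strand) was the most abundant of the 9 in CPM. WT females were at 84.4, 72.8, 139 and 142 CPM and WT males at 102, 116, 129 and 161 CPM. In Tg it was at 48.1, 48.8, 41.6 and 36.2 CPM in females, and males were at 33.8, 45.6, 37.6 and 44.6 CPM. The Tg libraries were closely grouped and below every WT library, while WT females split into a lower pair (females 1 and 2, both rich in adipocyte markers) and a higher pair. The log2 difference was -1.33 in females (SE 0.21) and -1.65 in males (SE 0.21), and -1.70 in females without the 3 libraries rich in adipocyte markers. Sorbs2 has 34 annotated transcript starts, and a value per gene cannot show which of its transcripts fell. The annotation places 1051 bases of Sorbs2 exons opposite exons of the antisense gene Sorbs2os, which had a mean of 0.0508 CPM over all libraries.

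All 8 Tg libraries lay below all 8 WT libraries in 8 of the 9 genes, a pattern held by 2.69% of the 13666 genes tested. The genes were chosen by their fall in these same libraries, which favours that pattern, so the comparison is a description. Over all genes, 30.4% differed between the genotypes in edgeR's quasi-likelihood test (adjusted p under 0.05), with 17.2% higher in Tg and 13.3% lower, and 1.21% were called lower by at least 1 on the log2 scale. All 9 genes were lower by more than that, which the choice of the genes fixes. Averaged over the sexes the log2 difference Tg minus WT ran from -1.49 in Sorbs2 (SE 0.15) and -2.37 in Htra4 (SE 0.25) to -3.53 in Cacna2d4 (SE 0.22) and -3.65 in Tmem132b (SE 0.30). Per kilobase of exon, the mean WT level was 20.4 CPM for Dkk3, 16.9 for Odf3l2, 5.92 for Htra4, 4.25 for Sorbs2, 1.47 for Tmem132b, 1.38 for Lrtm2, 0.772 for Kcnf1, 0.754 for Pld5 and 0.561 for Cacna2d4. Dkk3 and Odf3l2 were thus at the 88.3 and 86.1 percentiles of 13508 tested genes with a length, and Pld5, Kcnf1 and Cacna2d4 between the 19.4 and 24.1 percentiles. Levels of Tmem132b and Lrtm2, and of Kcnf1, Pld5 and Cacna2d4, did not differ beyond the spread of their WT libraries.

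Slow fibre markers moved with genotype in the other direction. Their summed level was 28.5 to 106 CPM in WT and 53.6 to 1006 CPM in Tg libraries, and 6 of 8 were called higher in Tg (edgeR, adjusted p under 0.05), while 1 of 9 fast fibre markers was called higher and 4 lower. The upper Tg limit is Tg female 2 alone, and the next highest Tg library was at 165 CPM. In that library Cacna2d4 (0.652 CPM) and Sorbs2 (48.8 CPM) were the highest of the Tg females. Kcnf1 and Tmem132b (each 0.100 CPM, on 2 counts) were the lowest there, and the rest of the 9 genes lay between. None of 9 adipocyte, 8 fibroblast, 8 endothelial or 8 macrophage markers was called between the genotypes. In the other marker lists a few genes were called. Of 7 satellite cell markers Cdh15 was higher in Tg (0.34 on the log2 scale) and Chodl (-1.07) and Fgfr4 (-0.89) were lower. Of 8 genes listed for tendon and junction Ankrd1 was higher (3.96) and Col22a1 lower (-0.76), while Scx and Tnmd were not called. Of 8 genes listed for smooth muscle and pericytes Des was higher (0.30), at a mean of 2778 CPM in WT, while Myh11 and Acta2 were not called. Whether Ankrd1 and Des reflect these cells or the muscle fibres was not tested. Of 8 Schwann cell and nerve markers Mag was higher (0.90, from 0.565 to 1.05 CPM). The part of fibre type or of these cell types in the falls of the 9 genes was not tested.

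**Figure D2:**
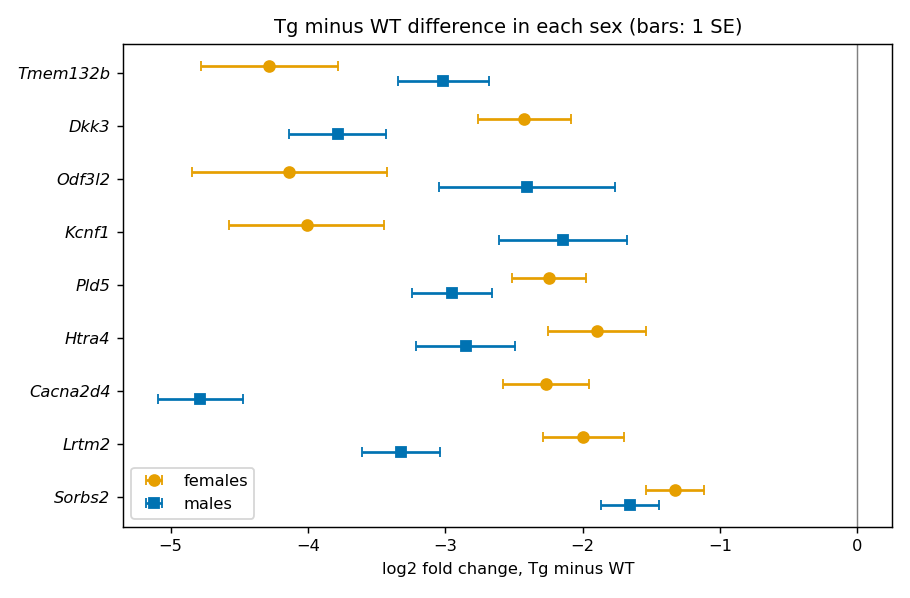
Log2 difference Tg minus WT of each of the 9 genes, with circles for females, squares for males and bars of 1 SE from edgeR. All 18 points are below 0; Cacna2d4 reaches -4.78 in males and Tmem132b -4.28 in females.

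The rule for choosing the genes names no sex difference, so the sexes were tested. The fall was measured against the same WT libraries, however, and the genes were chosen with earlier results of these data known. Counts of the 9 genes called between the sexes, against the shares of all genes, are therefore a description. In WT muscle 4 of the 9 genes were higher in males than in females in edgeR's quasi-likelihood test, where 2.01% of all genes were. Tmem132b was higher by 3.16 on the log2 scale (SE 0.34, edgeR adjusted p = 4.89e-05), from 2.43 ± 0.650 CPM in females to 21.7 ± 3.16 CPM in males (SD, n = 4 each). Cacna2d4 was higher by 2.34 (SE 0.26, edgeR adjusted p = 4.89e-05), from 1.76 ± 0.585 to 8.87 ± 0.998 CPM. Lrtm2 was higher by 1.72 (SE 0.26, edgeR adjusted p = 0.000914), from 2.63 ± 0.376 to 8.69 ± 2.82 CPM. Dkk3 was higher by 1.61 (SE 0.32, edgeR adjusted p = 0.0110), from 33.9 ± 13.4 to 103 ± 17.9 CPM. In these 4 genes all 4 WT males lay above all 4 WT females, which held for 4.52% of all genes.

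The calls of Tmem132b, Cacna2d4 and Lrtm2 held in all 24 alternative settings. That of Dkk3 was lost without the 3 WT libraries rich in adipocyte markers, which leaves 2 WT females (1.47 on the log2 scale, edgeR adjusted p = 0.0677). Htra4 was 1.2 higher in WT males (SE 0.33) and did not pass the test (edgeR adjusted p = 0.0638), with group means of 8.63 ± 2.22 and 19.8 ± 7.40 CPM. For Odf3l2, Kcnf1, Pld5 and Sorbs2 the WT difference was between -0.33 and 0.21 on the log2 scale, with SE of 0.20 to 0.59, and none passed the test.

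In Tg muscle 1 of the 9 genes was higher in males, against 0.351% of all genes. Tmem132b was higher by 4.42 on the log2 scale (SE 0.49, edgeR adjusted p = 0.000167), from 0.120 ± 0.0302 CPM in females to 2.68 ± 1.83 CPM in males (SD, n = 4 each). The female value rests on 12 counts in 4 libraries, and the ratio of summed counts, scaled to library totals, had a 95% counting interval of 12.6 to 43.95. In Tmem132b and Kcnf1 all 4 Tg males lay above all 4 Tg females, a pattern of 3.81% of all genes. Kcnf1 was 2.06 higher in Tg males (SE 0.60) and Pld5 was at -1.03 (SE 0.30), and neither passed the test (edgeR adjusted p = 0.217 and 0.211). Cacna2d4, Lrtm2 and Dkk3, called between the WT sexes, were at -0.17 (SE 0.37), 0.39 (SE 0.31) and 0.25 (SE 0.34) on the log2 scale in Tg, and none was called.

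**Figure D3:**
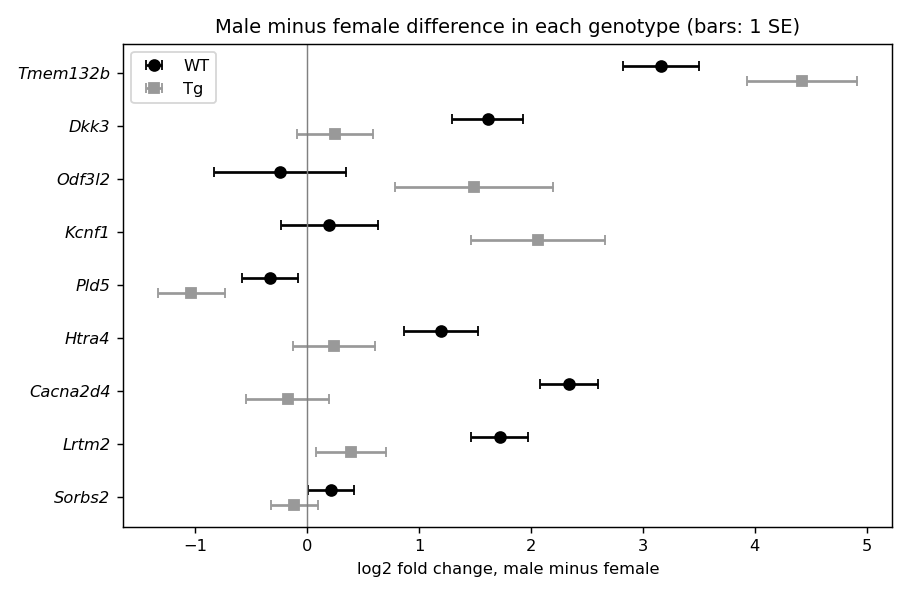
Log2 difference male minus female of each gene in WT (black circles) and in Tg (grey squares), with bars of 1 SE from edgeR. Tmem132b is above 3 in both genotypes, whereas Cacna2d4 is at 2.34 in WT and -0.17 in Tg.

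Whether the genotype effect itself differed between the sexes was tested as an interaction. None of the 9 genes was called, and 1 of all tested genes was (0.00732%, Itpr1); at an unadjusted p under 0.05 there were 1015 genes. Cacna2d4 came nearest, with a fall that was larger in males by 2.51 on the log2 scale (SE 0.45, edgeR adjusted p = 0.0573). Its adjusted p was 0.000227 with DESeq2 and ran from there to 0.172 over the alternatives. Dkk3 (-1.36, SE 0.46) and Lrtm2 (-1.33, SE 0.41) also had the larger fall in males, and Tmem132b (1.26, SE 0.63), Odf3l2 (1.73, SE 0.92) and Kcnf1 (1.86, SE 0.74) the larger fall in females. None of these 5 passed the test (edgeR adjusted p from 0.409 to 0.729), so a difference between the sexes in the fall was not shown for them.

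Cacna2d4 and Lrtm2 share a locus. All 15634 bases of Lrtm2 lie within an intron of Cacna2d4. The exons on either side end at -18.3 kb and begin at 0.003 kb from the Lrtm2 start. No exon base is common to the annotated exons of the pair. The libraries were made with a stranded kit, but the strand setting used for counting was not among the sources used. Reads from unspliced Cacna2d4 RNA could thus have been counted for Lrtm2. Unspliced Lrtm2 RNA within its annotated span covers no annotated exon of Cacna2d4. The pair had its high values in the same group, WT males, but, among WT libraries, not in a fixed proportion. The ratio of Cacna2d4 to Lrtm2 counts had a median of 0.665 in WT females (0.5 to 0.796) and 1.01 in WT males (0.809 to 1.55). In Tg females it was 0.579 (0.263 to 1.25) and in Tg males 0.358 (0.292 to 0.529), where it lay below every WT male. The Tg ratios rest on 5 to 13 counts of Cacna2d4 and 8 to 24 counts of Lrtm2 per library. Counting error is large at such counts, and it also enters the correlation given next. After subtraction of group means, log2 levels of the pair had a Pearson r of 0.09 over the 16 libraries, a description of the spread within groups.

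**Figure D4:**
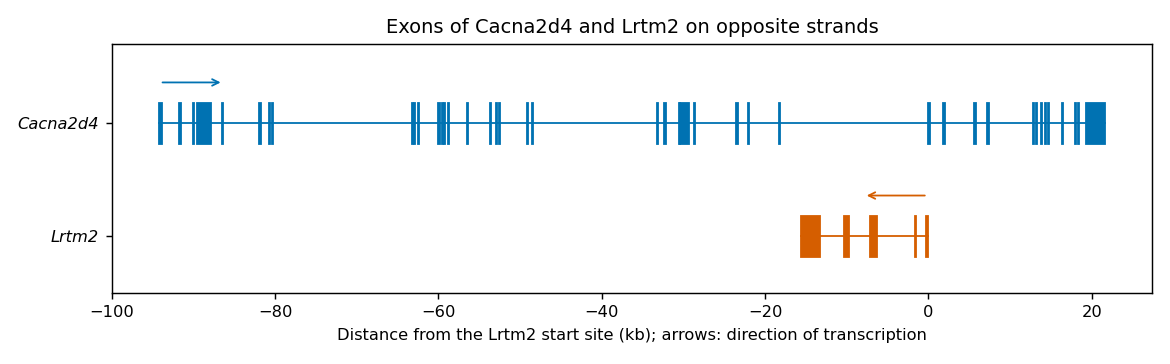
Annotated exons (boxes) of Cacna2d4 and Lrtm2 by distance from the Lrtm2 start site in kilobases, with arrows in the direction of transcription. Lrtm2 occupies an interval of Cacna2d4 without sharing exon bases, and a short Cacna2d4 exon stands beside the Lrtm2 start.

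Within groups the 9 genes gave correlations of both signs. Over the 36 pairs, the Pearson r of log2 CPM after subtraction of group means (16 libraries) had a median of 0.11, with 24 pairs above 0. It ran from -0.59 for Odf3l2 and Htra4 to 0.59 for Pld5 and Sorbs2. Some levels rest on few counts, such as 2 to 4 for Tmem132b and 2 to 9 for Kcnf1 in Tg females. Counting error can pull r toward 0, so a low r cannot show that shared variation was absent. The tested genes outside the 9 that were most like each by this measure, and not chosen for their genotype difference, were Larp1 for Sorbs2 (r = 0.94), Anapc4 for Pld5 (0.92), Gm4841 for Kcnf1 (0.88), Magoh for Lrtm2 (0.86), Ccdc9b for Cacna2d4 (0.84), Smoc2 for Htra4 (0.83), Prodh for Odf3l2 (0.83), 1700008J07Rik for Tmem132b (0.83) and Spata5l1 for Dkk3 (0.78). These are the highest values over all genes for each and share library depth and composition. Gm4841 fell with genotype (-1.50, edgeR adjusted p = 0.000329) and Anapc4 slightly (-0.19, edgeR adjusted p = 0.0174), and the other 7 were not called.

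The relatives of the 9 genes were listed by family or function, though with earlier results of these data known. Their genotype differences were tested with edgeR over all genes. Among auxiliary alpha-2-delta subunits, Cacna2d1, the main form in skeletal muscle, was at 612 ± 114 CPM in WT and 513 ± 72 CPM in Tg (SD, n = 8 each; -0.26 on the log2 scale, edgeR adjusted p = 0.0762). Cacna2d2 and Cacna2d3 were under 1 CPM and were not called. Of 17 tested calcium channel subunit genes outside the 9, 3 rose and 4 fell, where 17.2% of all genes were called higher and 13.3% lower. Their median log2 difference was -0.22 against -0.01 for all genes. Cacnb1 and Cacng1, subunits of the muscle channel, rose by 0.53 and 0.49 on the log2 scale and Cacna1a by 0.64. Cacna1i fell by 2.10, Cacng7 by 1.21, Cacna1d by 0.94 and Cacng6 by 0.22. Of these, Cacna1i (mean 1.66 CPM in WT and 0.350 CPM in Tg) and Cacna1d (0.431 and 0.230 CPM) were at low levels.

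Of 17 tested voltage-gated potassium channel subunit genes outside the 9, 1 rose (Kcnq1) and 7 fell, with a median of -0.24. Kcng4, like Kcnf1 a silent subunit, fell from 46.1 ± 13.3 to 15.9 ± 4.14 CPM (SD, n = 8 each; -1.51 on the log2 scale, edgeR adjusted p = 9.33e-06). At low levels, Kcnc2 fell by 1.14 (mean 0.586 CPM in WT and 0.273 CPM in Tg) and Kcnh2 by 1.11 (1.12 and 0.529 CPM). Over all genes 17.2% were called higher and 13.3% lower.

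Around Dkk3, 8 other Wnt antagonists and their receptors were tested, and 1 rose and none fell. Frzb, a secreted binder of Wnt proteins, rose by 1.01 on the log2 scale (edgeR adjusted p = 0.00101). Dkk2 went from 7.67 ± 3.62 to 5.22 ± 2.88 CPM and was not called (edgeR adjusted p = 0.221). Of 23 Wnt ligand and receptor genes 1 rose (Fzd10, 1.05) and 6 fell, led by Fzd4 (-0.70), Wnt9a (-0.69) and Fzd9 (-0.60). Fzd10 was at a low level, with a mean of 0.479 CPM in WT and 1.02 CPM in Tg. Of 18 genes of the pathway core and its targets 1 rose (Gsk3b, 0.32) and 5 fell, led by Lgr4 (-0.62), Axin2 (-0.53) and Tcf7l1 (-0.38). Over all genes 17.2% were called higher and 13.3% lower. The medians of these 3 lists were -0.31, -0.16 and -0.23, against -0.01 for all genes.

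Lrtm1, the nearest relative of Lrtm2 in the list, fell from 58.9 ± 22.8 to 23.4 ± 4.45 CPM (SD, n = 8 each; -1.28 on the log2 scale, edgeR adjusted p = 3.41e-07). In WT it was lower in males (-0.89, edgeR adjusted p = 0.00302), the direction opposite to Lrtm2. The other 5 tested genes of that list were not called. Htra1 fell by 0.62 and Htra2 and Htra3 were not called. Pld2 fell by 0.37 and Pld1, Pld3 and Pld4 were not called. Tmem132a, the other tested gene of the TMEM132 family, rose by 0.52 (edgeR adjusted p = 0.0184). Odf2, a centrosome and sperm tail protein, rose by 0.20, and Odf2l and Odf3l1 were not called.

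Sorbs3, a SoHo adaptor like Sorbs2, was not called (-0.15 on the log2 scale, SE 0.13). Of 24 tested SoHo adaptors and partners at the Z-disc and costamere outside the 9, 5 rose and 6 fell, beside the 17.2% and 13.3% of all genes. Myoz2 rose by 2.60, Flnc by 1.63 and Actn2 by 1.51 on the log2 scale, and Myoz3 fell by 0.98, Pdlim5 by 0.51 and Abl1 by 0.36. Myoz2 is the calsarcin of slow fibres and heart, and slow fibre markers were higher in Tg, as given above. Among genes with the same name stem that are named here, the member of the 9 was further below 0 than its relatives, a consequence of how it was chosen.

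**Figure D5:**
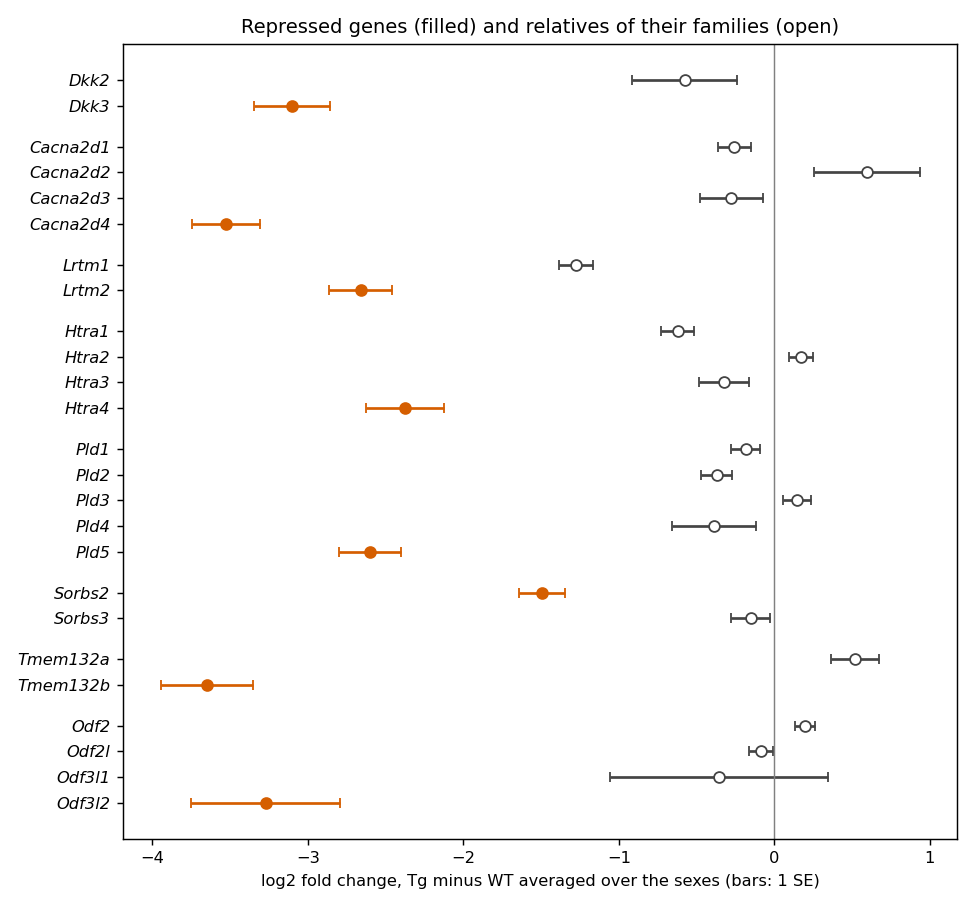
Log2 difference Tg minus WT averaged over the sexes, with bars of 1 SE from edgeR, for 8 of the repressed genes (filled; Kcnf1 is not drawn) and relatives with the same name stem (open), without the other genes of the channel, Wnt and Z-disc lists. Of the relatives drawn, Lrtm1 at -1.28 is furthest below 0, and the others lie between -0.62 and 0.60.

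Genes outside the 9 with falls of similar size give the setting of these values. Leaving out predicted genes, clones and genes under a mean log2 CPM of 1, 31 other genes were called and fell at least as far as Sorbs2, but 1 of them, Gbp10, fell further than Htra4. The 10 largest were Gbp10 (-2.78), Otub2 (-2.33), Mettl21c (-2.31), Sbk2 (-2.17), Shc2 (-2.07), Golm1 (-2.07), Mettl21e (-2.02), Ankrd6 (-1.98), Cish (-1.95) and Map2k6 (-1.95). Of these 10, Mettl21c, Sbk2, Shc2 and Golm1 were also higher in WT males than in WT females (edgeR adjusted p from 0.00458 to 0.0476). These 10 were chosen by their fall, as were the 9, and their count against the 2.01% of all genes higher in WT males is a description.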

How the data were processed

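The estimated counts (expected counts) deposited by the authors list 19108 gene symbols for each library. Cutadapt 1.2.1, TopHat2, Bowtie2, bcl2fastq and the genome build mm10 are named, without their order, in the submitters' processing notes. No source states the unit, which was inferred from partly fractional values with library totals that differ. The gene counter, its annotation and its strand setting were not among the sources used. A count of 0 in a library would allow up to 3 counts, or 0.101 to 0.165 CPM.

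Values were rounded to whole numbers, which moved none by more than 0.5. In R 4.3.3, edgeR 4.0.16 was used with TMM scaling (factors 0.887 to 1.10), filterByExpr (minimum count 10, minimum total 15), group means over all 16 libraries and robust quasi-likelihood F tests. Adjusted p values are Benjamini-Hochberg values over 13666 genes, called under 0.05, and two-sided. The biological coefficient of variation was 0.201, and the SE is the log2 fold change divided by the square root of F. P-values set each difference against the spread between the mice sampled, which was estimated with information shared over genes. No label names a sequencing batch or date. Count intervals are exact and have a 95% level. Positions are from GENCODE M21 (GRCm38, the sequence of mm10). The script was tested on simulated data. Xist and Y-linked genes matched the sex labels.

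The 9 genes and the gene lists were chosen with earlier results of these data known. Named were all 9 genes, their tested relatives (1 is not reported here), up to 3 called list genes per direction with the largest change, the 10 largest other falls and the 3 genes closest in pattern to each, of which the first is printed. Alternatives were other size factors, DESeq2 1.42.0, limma-voom (limma 3.58.1), other filters, an adipocyte marker covariate, the libraries over 5 times the median adipocyte sum left out, and each library left out in turn.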

Additional observations from a re-analysis of the deposited data

Results flagged for a closer look

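In groups of 4 libraries, Tmem132b in Tg female 4 stood apart from the other Tg females, at 0.165 CPM against 0.100 to 0.109 CPM. The gap was larger than Dixon's 95% limit for 4 values. The values rest on 2 to 4 counts per library. This was 1 flag among 36 sets of 4 values (9 genes in 4 groups), and chance flags about 1 in 20.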

How the results depend on the processing

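Of 1296 values recomputed over 24 alternative settings, 1274 kept their direction and their side of the threshold or stayed within the replicate spread. No paired analysis was possible because no label pairs mice and replicate numbers follow the order of deposition. The cause of the changes below was not tested. Genes called for the interaction (1) numbered 80 with DESeq2, 8 with no filter, 4 without the 2 adipocyte-rich libraries, 13 without 3 of them, 14 with the adipocyte covariate and 0 to 23 with a library left out. Between the WT sexes (501) they numbered 807 with DESeq2 and 292 to about 7.3e+02 with a library left out, and between the Tg sexes (72) 166 with DESeq2, 110 with the covariate and 43 to 86. Of the 9 genes, 1 was called for the interaction by DESeq2 and with no filter (Cacna2d4) in place of 0. Between the Tg sexes 2 in place of 1 were called by DESeq2, without the 2 adipocyte-rich libraries, without 3 of them and, with a library left out, 1 to 2. The added gene was Kcnf1 with DESeq2 (adjusted p = 0.0252) and Pld5 in the others, which included the setting without WT female 2 (adjusted p = 0.0321). Htra4 was called between the WT sexes by DESeq2 (adjusted p = 0.00739) and without WT male 1 (0.0232) or Tg male 1 (0.0271).

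Differences near 0 that changed sign had not passed the test. Male minus female in WT, Odf3l2 was 0.016 with the covariate and -0.46 to 0.042 with a library left out. Kcnf1 was -0.17 without the 2 adipocyte-rich libraries, -0.60 without 3 of them and -0.082 to 0.75 with a library left out, and Sorbs2 -0.036 without 3 of them. Male minus female in Tg, Dkk3 was -0.011 to 0.46 and Cacna2d4 -0.41 to 0.20 with a library left out. Leaving out the third adipocyte-rich library was chosen after seeing the data.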
